A study of Mus musculus with 21 samples.

Results

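The Hox genes were taken as every row of the RNA-seq table whose symbol is Hoxa, Hoxb, Hoxc or Hoxd followed by a number, which gave 40 rows for 39 symbols among 37620 genes. Hox genes encode homeodomain transcription factors and lie in clusters in which gene order follows the order of their expression along the body axis of the embryo, from the anterior to the posterior end. Genes at the same place in different clusters form a paralogue group, and each cluster keeps only some of the groups. Outside their expression domains the clusters are a textbook target of Polycomb repression, and many somatic tissues keep a regional Hox pattern after birth.

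The study mapped binding of the meiotic protein PRDM9, and its RNA-seq described gene expression in germ cells at the time PRDM9 acts. RNA was prepared from germ cells of C57BL/6J mice at 12 days post-partum, freed by digestion with collagenase followed by trypsin and labelled spermatocytes. No group carried a mutation, transgene or treatment in the labels. There were 12 libraries, 3 under each of the sample numbers 186wt, 343wt, 444wt and 456wt, and the labels do not say what a number stands for. The study's methods name as many replicates of germ cells as there are sample numbers.

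The 3 libraries of a number are therefore read as repeats of 1 replicate, and the limma p-values below set differences between these 4 samples against the spread between repeat libraries. They do not measure the spread between animals, and no comparison has more than 1 replicate for the number set apart. Levels are given in FPKM, fragments scaled by transcript length and library size, which can be compared between genes. Unless stated otherwise a level is the mean of 4 sample numbers, each the mean of its 3 libraries, with the SD over the 4 numbers. From the steps between the lowest values, depth was estimated at about 12500000 to 17000000 fragments per library, so 0.1 FPKM on an effective length of 2 kb was about 2.95 fragments in a library and 35.5 in all 12. Intervals were not drawn from these estimates.

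Markers set against the cell type label showed both germ cells and somatic cells. All 10 meiotic markers, among them Sycp3 and Dmc1, exceeded 1 FPKM with a median of 38.5 FPKM. All 10 Sertoli markers did so as well, with a median of 87.8 FPKM, and so did all 6 peritubular myoid and all 6 fibroblast markers, with medians of 46.2 and 88.8 FPKM. In bulk RNA of this kind, fewer cells of a type and less RNA per cell cannot be told apart.

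Hox genes were transcribed at low levels. Their median was 0.323 FPKM, against 0.195 FPKM over all genes and 3.01 FPKM over 22337 protein-coding genes. A level of 0.1 FPKM was reached by 30 of the 40 rows, beside 55.3% of all genes and 74.2% of protein-coding genes. A level of 1 FPKM was reached by 8 rows, beside 38.1% of all genes and 58.7% of protein-coding genes. Only Hoxc12 was listed at 0 in all 12 libraries. The levels were concentrated in a few genes, since the top 3 (Hoxd8, Hoxd9 and Hoxb9) held 47.5% of the summed Hox FPKM and the top 8 held 73.9%.

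The highest Hox gene was Hoxd8, with 4.37 FPKM in 186wt, 4.63 in 343wt, 5.73 in 444wt and 9.01 in 456wt. Its neighbour Hoxd9, which acts in limb and axial patterning, followed with 4.83, 4.52, 5.99 and 8.14 FPKM in the same order. The means of 5.94 ± 2.13 and 5.87 ± 1.64 FPKM (SD, n = 4) did not differ beyond their spread. Both placed these genes above about 56.7% and 56.6% of protein-coding genes, so that even the top of the family lay near the middle of the coding transcriptome.

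The sequences before these genes are shown because they stand upstream of the 2 highest members, together with Hoxd12, which lies in the same cluster at 0.0075 ± 0.0096 FPKM and was above 0 in 3 of 12 libraries. Each run is part of the RefSeq promoter window of GRCm38.p6, placed by an exact match on NCBI build 37, plus strand, and ended before the first base annotated as an exon. The Hoxd8 run is chr2:74542422-74542671, the Hoxd9 run chr2:74535570-74535736 and the Hoxd12 run chr2:74512820-74512985. CpG dinucleotides (CG, which reads the same on both strands) are in capitals.
Hoxd8: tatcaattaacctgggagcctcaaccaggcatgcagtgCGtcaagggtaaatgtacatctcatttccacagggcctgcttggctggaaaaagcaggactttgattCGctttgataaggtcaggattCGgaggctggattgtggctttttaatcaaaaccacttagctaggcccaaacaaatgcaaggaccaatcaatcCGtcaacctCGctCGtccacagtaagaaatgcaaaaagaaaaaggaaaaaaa
Hoxd9: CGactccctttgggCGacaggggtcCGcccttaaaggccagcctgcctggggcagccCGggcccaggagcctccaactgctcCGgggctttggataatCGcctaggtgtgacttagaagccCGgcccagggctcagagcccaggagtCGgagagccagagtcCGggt
Hoxd12: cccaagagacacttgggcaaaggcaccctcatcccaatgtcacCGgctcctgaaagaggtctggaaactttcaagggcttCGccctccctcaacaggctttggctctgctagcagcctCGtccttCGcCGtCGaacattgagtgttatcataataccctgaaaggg
All 3 runs held CpG dinucleotides, 6 in the 250 bases of Hoxd8, 9 in the 167 bases of Hoxd9 and 6 in the 166 bases of Hoxd12.

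Over the 250 bases before the start, 22 Hox symbols had 24 windows in the RefSeq table, with a median of 12.5 CpG dinucleotides and a range of 2 to 35. The median over all 32851 windows was 6, with a range of 0 to 56. A ratio of observed to expected CpG of at least 0.6 was found in 54.2% of Hox windows and in 33.9% of all windows. The 7 Hox windows of genes under 0.1 FPKM had a median of 24 CpG dinucleotides, and the 6 windows of genes at 1 FPKM or more had a median of 10. Windows of genes between these levels held 2 to 20, and both extremes occurred in windows of Hoxd11. Several of them lay below the median of 10, among them Hoxb1 (7), Hoxa7 (7) and Hoxa9 (3). The count thus did not fall steadily with level, and no trend was tested. The richest window belonged to Hoxa13, at 0.0442 FPKM, and the window of Hoxd4, at 1.81 FPKM, held 3. Among others, Hoxa4, Hoxb9, Hoxc6 and Hoxc8 had no entry.

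HoxD had the highest and HoxA the lowest summed level in each sample number. HoxD (chr2:74506367-74603200) summed to 14.2 FPKM in 186wt, 13.1 in 343wt, 17.6 in 444wt and 25.4 in 456wt, or 52.3% of all Hox FPKM. HoxB (chr11:96055630-96229570) summed to 7.44, 9.25, 7.54 and 6.32 FPKM. HoxC (chr15:102751534-102867274) summed to 3.85, 3.69, 4.48 and 8.89 FPKM. HoxA (chr6:52105366-52210874), on the minus strand where the others lie on the plus strand, summed to 2.54, 1.87, 3.91 and 4.31 FPKM. The means were 17.6 ± 5.56, 7.64 ± 1.21, 5.23 ± 2.47 and 3.16 ± 1.15 FPKM (SD, n = 4) for HoxD, HoxB, HoxC and HoxA. Coordinates are those of NCBI build 37, from the start of the first Hox gene to the end of the last.

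HoxD exceeded HoxA by a log2 difference of 2.51 ± 0.26 (SD over 4 numbers), HoxC by 1.80 ± 0.20 and HoxB by 1.17 ± 0.63. An exact two-sided sign-flip permutation test over the 4 sample numbers cannot give a p below 0.125, and it gave 0.125 (adjusted over 6 pairs, 0.15) for every pair but HoxB and HoxC. HoxB exceeded HoxC in 3 of 4 numbers and was lower in 456wt (exact permutation p = 0.25, adjusted 0.25). No pair could therefore pass a threshold of 0.05 with this test, although 5 of the 6 had the same direction in all 4 numbers.

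The clusters differed in how many members carried the sum. HoxB was the broadest, with 10 of 10 genes at 0.1 FPKM or more and 1 of them, Hoxb9, above 1 FPKM. HoxD had 6 of 9 genes at 0.1 FPKM and 5 above 1 FPKM. HoxC had 7 of 9 and 2, and HoxA had 7 of 12 rows and 0. The median level was 0.410 FPKM in HoxB, 0.403 in HoxC, 1.61 in HoxD and 0.18 in HoxA.

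**Figure D1:**
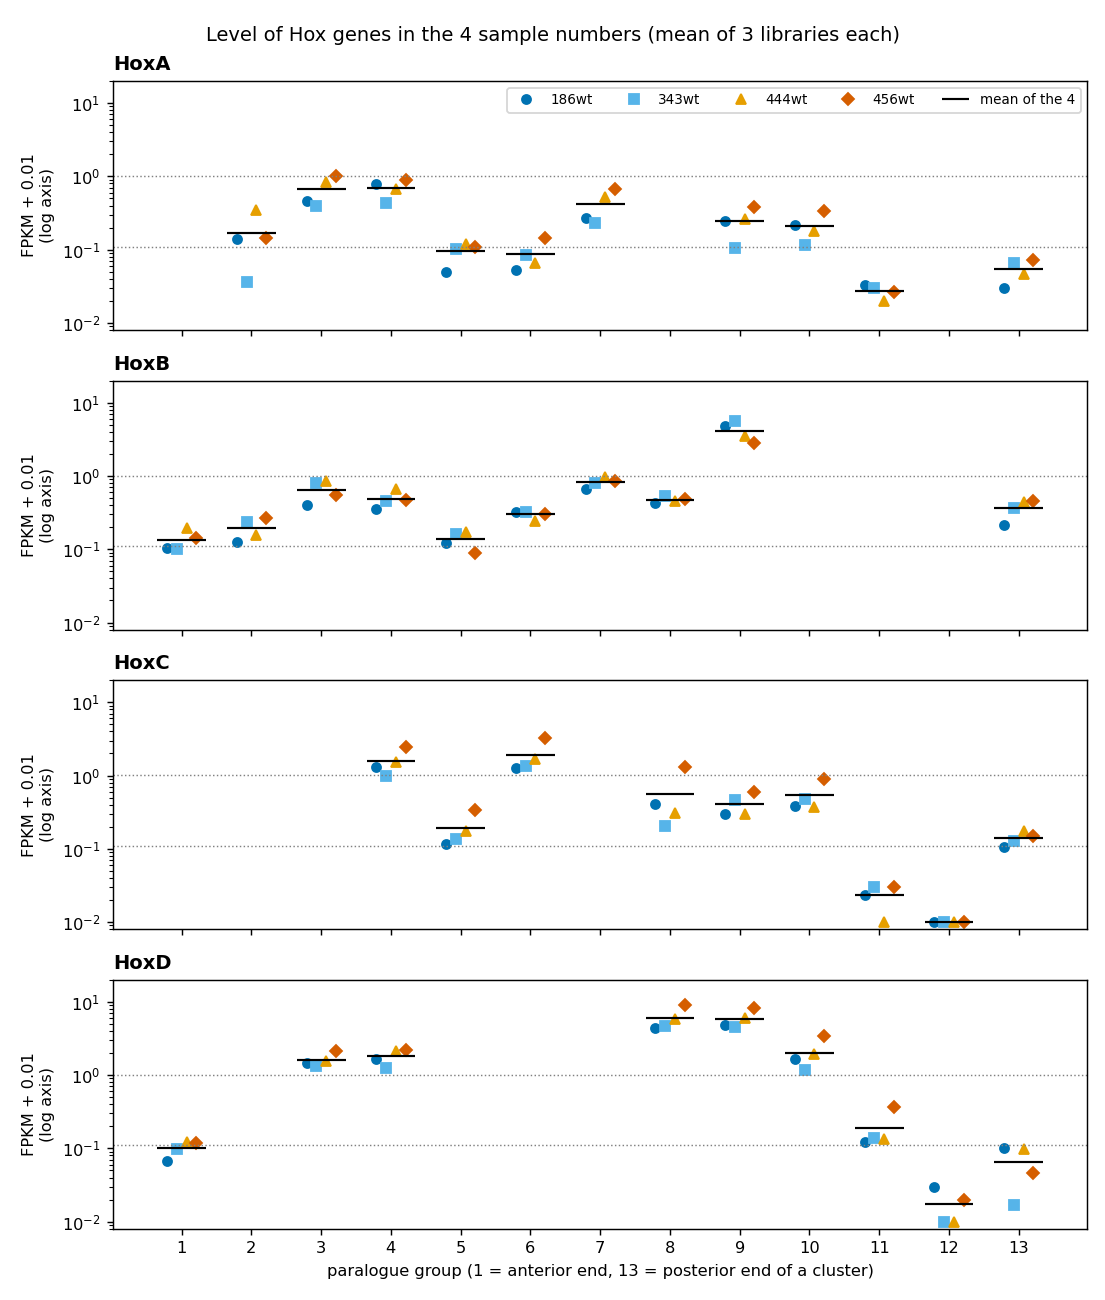
Level of 38 Hox genes by paralogue group, 1 panel per cluster. The y axis is FPKM + 0.01 on a log scale, each symbol is a sample number (mean of 3 libraries), black bars are the mean of the 4 numbers and dotted lines mark 0.1 and 1 FPKM. The highest levels lie at groups 8 and 9 of HoxD and group 9 of HoxB, and group 12 lies near 0 in both clusters that have it.

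By position, the central and posterior genes had higher sums than the anterior genes, over unequal numbers of rows. The median was 0.479 FPKM for central genes, and close to equal for posterior (0.192 FPKM) and anterior (0.187 FPKM) genes. Much of the posterior sum came from Hoxd9 (5.87 FPKM) and Hoxb9 (4.16 FPKM). The central genes (groups 4 to 8) reached 0.1 FPKM in 13 of 15 cases and summed to 15.3 ± 5.01 FPKM. The posterior genes (groups 9 to 13) reached it in 10 of 16 cases and summed to 14.2 ± 2.25 FPKM, and the anterior genes (groups 1 to 3) in 7 of 9 rows with a sum of 4.05 ± 1.03 FPKM. Within the posterior class the levels were far lower after group 10. Group 9 had 4 of 4 members above 0.1 FPKM and a sum of 10.7 ± 0.859 FPKM, and group 10 had 3 of 3 and 2.75 ± 1.29 FPKM. Group 11 had 1 of 3 members above 0.1 FPKM and a sum of 0.211 FPKM, and group 12 had 0 of 2 and 0.0075 FPKM. Group 13 had 2 of 4 members at that level, Hoxb13 at 0.357 ± 0.110 FPKM and Hoxc13 at 0.130 ± 0.030 FPKM. Hoxb13 is known from the prostate and Hoxc13 from hair and nail.

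Among the genes at 1 FPKM or more, Hoxb9 was the only one outside HoxC and HoxD. It had 4.80 FPKM in 186wt, 5.59 in 343wt, 3.46 in 444wt and 2.79 in 456wt, a mean of 4.16 ± 1.27 FPKM. The next HoxB gene, Hoxb7, reached 0.814 ± 0.131 FPKM, so Hoxb9 stood well clear of its cluster. In HoxD, Hoxd10, a gene of hindlimb motor neurons and limb, had 1.63, 1.15, 1.90 and 3.41 FPKM in the same order. The levels of Hoxd4 were 1.67, 1.25, 2.11 and 2.22 FPKM and those of Hoxd3 were 1.44, 1.33, 1.56 and 2.12 FPKM. These genes of the cervical axis share exon bases on the same strand, 67.4% of Hoxd4 and 29.8% of Hoxd3, so their separate levels depend on how the authors' program divided the shared reads.

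In HoxC, Hoxc6 had 1.27 FPKM in 186wt, 1.33 in 343wt, 1.69 in 444wt and 3.20 in 456wt. Hoxc4 had 1.30, 0.973, 1.50 and 2.44 FPKM. The means, 1.87 ± 0.907 and 1.55 ± 0.629 FPKM, overlapped those of Hoxd10 (2.02 ± 0.977), Hoxd4 (1.81 ± 0.443) and Hoxd3 (1.61 ± 0.352) within their spread. These means give the 5 genes no firm order. Compared within each sample number, only Hoxd10 and Hoxc4 kept the same order throughout, with Hoxd10 higher. No HoxA gene averaged 1 FPKM. Its highest was Hoxa4, with 0.767, 0.420, 0.653 and 0.877 FPKM and a mean of 0.679 ± 0.195 FPKM, followed closely by Hoxa3 at 0.668 ± 0.298 FPKM.

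Beside the 8 rows at 1 FPKM or more, 22 rows lay between 0.125 FPKM (Hoxb1) and 0.814 FPKM (Hoxb7). The 10 rows under 0.1 FPKM were Hoxa5, Hoxa6, Hoxa11, Hoxa13, Hoxc11, Hoxd1, Hoxd12 and Hoxd13, each above 0 in at least 3 libraries, Hoxc12, and a second row of Hoxa3. That row (ENSMUSG00000059723) was listed at 0 in 11 of 12 libraries and at 0.02 FPKM in 1 library of 456wt, and shares 88.9% of its exon bases with the main Hoxa3 row (ENSMUSG00000079560). In all, 13 rows share exon bases with another gene on the same strand and 9 with a gene on the opposite strand. The largest opposite-strand overlaps were those of Hoxb2 (49.4%) and Hoxb3 (37.9%) with Hoxb3os and of Hoxa11 (38.6%) with Hoxa11as. The strand setting of the counting is not given in the sources used here, so reads of these pairs may not be told apart.

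Hox levels stood below those of the genes around the clusters. The 5 nearest protein-coding genes on each side of the 4 clusters, 40 in all, had a median of 26.5 FPKM and 31 of them reached 1 FPKM. The highest flanking genes were the RNA-binding protein genes Hnrnpa1 beside HoxC (428 FPKM), Hnrnpa2b1 beside HoxA (405 FPKM) and Hnrnpa3 beside HoxD (359 FPKM). At the anterior edge of HoxD, Hoxd1 at 0.0917 FPKM is followed by Mtx2 at 55.6 FPKM. The step was smaller in HoxC, where Hoxc4 at 1.55 FPKM is followed by Smug1, a DNA repair gene, at 4.13 FPKM. The genes next to HoxB were themselves low. Hoxb13 at 0.357 FPKM lies beside Ttll6 at 0.571 FPKM and Calcoco2 at 0.272 FPKM, and Hoxb1 at 0.125 FPKM beside Skap1 at 0.775 FPKM. At the posterior ends of HoxA and HoxD lie Evx1 and Evx2, the even-skipped homeobox genes related to Hox, and these were as low as the Hox genes next to them, at 0.0508 and 0.0300 FPKM.

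**Figure D2:**
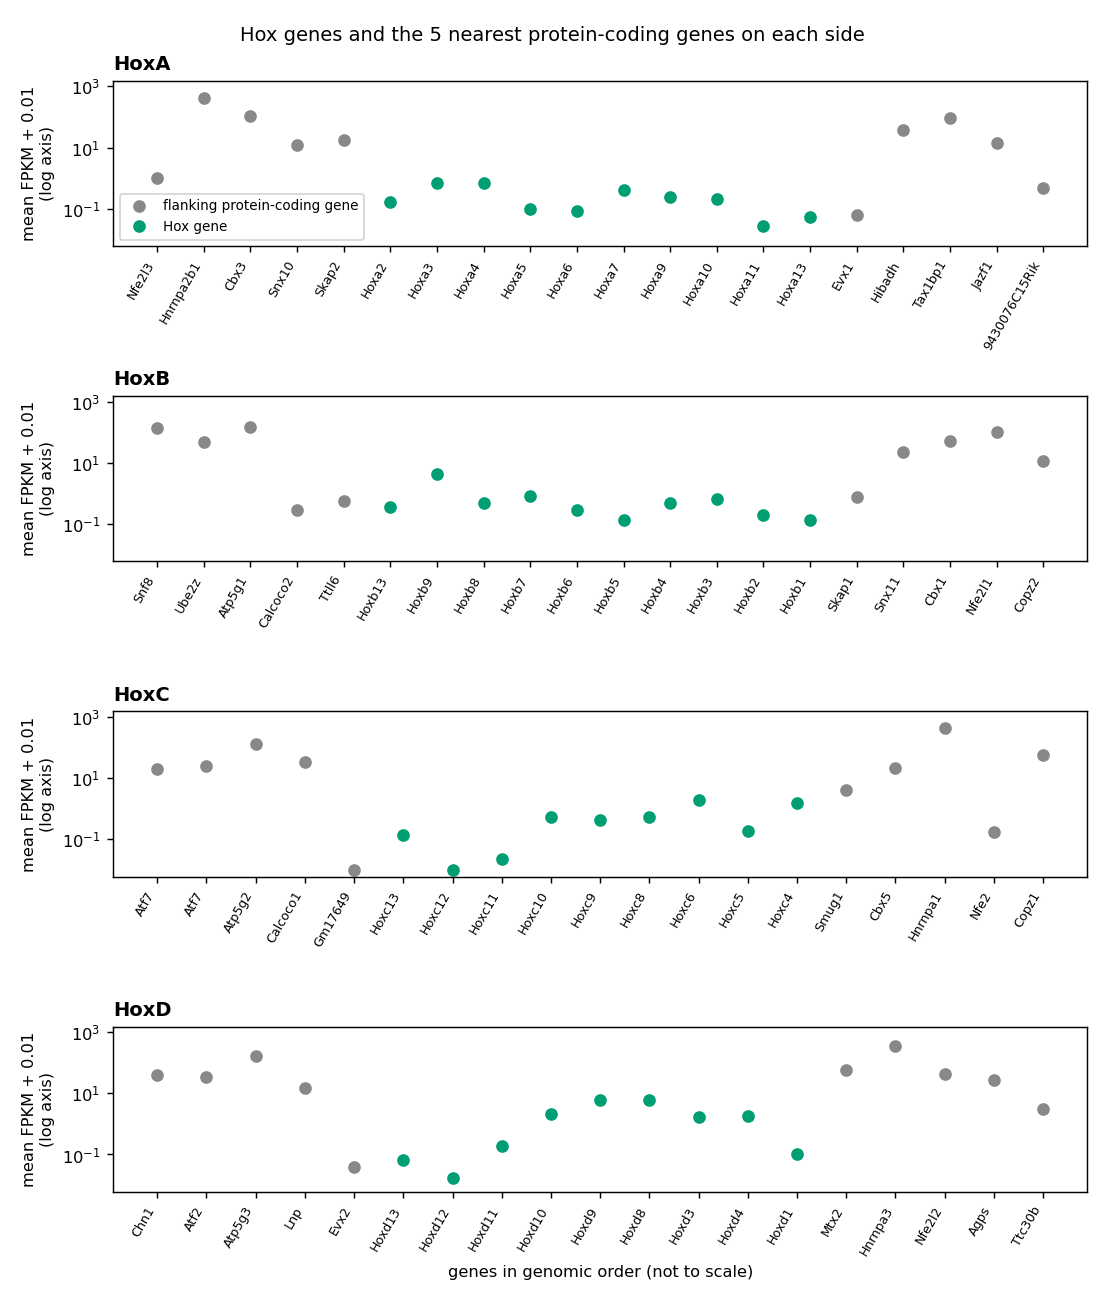
Mean level of 38 Hox genes (green) and of the 5 nearest protein-coding genes on each side (grey), in genomic order and not to scale. The y axis is mean FPKM + 0.01 on a log scale. Most grey points lie above 10 FPKM and all green points lie below it, with Evx1 and Evx2 among the lowest grey points.

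Other genes between the ends of the clusters were also low, with 1 exception. Of 22 such genes that are not miRNAs, 12 reached 0.1 FPKM and 5 reached 1 FPKM. The exception was Gm53, between Hoxb13 and Hoxb9, with 14.8, 15.3, 15.8 and 8.36 FPKM in 186wt, 343wt, 444wt and 456wt and a mean of 13.6 FPKM, above that of every Hox gene. The others above 1 FPKM were Gm11539 (1.95 FPKM) in HoxB, 1700109F18Rik (1.58 FPKM), which spans Hoxd8 on the opposite strand, Gm15051 (1.10 FPKM) in HoxA, and Hoxb3os (1.005 FPKM). The miRNA rows numbered 10, of which 8 were listed at 0. The remaining 2, both of Mir196a-1 at the same position in HoxB, averaged 1.31 FPKM and were above 0 in 9 libraries.

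Transcripts of proteins that work with or on Hox genes were present. All 9 genes of the TALE family, the Pbx, Meis and Pknox homeodomain cofactors that bind DNA with Hox proteins, exceeded 1 FPKM, with a median of 7.54 FPKM, from Meis2 at 1.24 FPKM and Meis3 at 1.82 FPKM to Pbx2 at 52.8 FPKM. All 14 Polycomb genes examined exceeded 1 FPKM, with a median of 29.9 FPKM, among them Ezh2, the H3K27 methyltransferase, at 25.9 FPKM. The 4 trithorax and H3K27 demethylase genes that were found had a median of 23.8 FPKM. The related ParaHox, Cdx and Evx genes were lower than Hox, with 1 of 8, Cdx1 at 0.309 FPKM, above 0.1 FPKM.

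The sample numbers were then compared, since an average over them can hide differences. A limma F-test on log2(FPKM + 0.1), run over the 20795 genes that averaged 0.1 FPKM or more and adjusted by Benjamini-Hochberg, called 58.2% of all genes. Of the 30 Hox genes that entered it, 15 were called, a share no higher than that background, and the 10 rows below that mean were not tested. In size, the highest and lowest numbers stood a median of 0.96 apart on the log2 scale for Hox and 0.55 apart for all genes. With a pseudocount of 1 these medians were 0.39 and 0.34. The sets were not matched for level, as 8 of the 30 Hox genes and 14348 of all 20795 genes averaged 1 FPKM or more. Low genes can have a wide range without a call, as did Hoxa9 (1.34) and Hoxa10 (1.03), with limma F-test adjusted p of 0.202 and 0.460. The filter was on the mean over numbers, so a gene could enter through the number in which it was high, as Hoxa2 did through 444wt. Without 444wt, 29 Hox genes were tested and Hoxa2 was not among them. Calls numbered 4 of 7 in HoxA, 3 of 10 in HoxB, 4 of 7 in HoxC and 4 of 6 in HoxD. Hoxb4, 1 of the 15, rested on the setting, as it lost its call in 19 of 24 alternatives, 11 of them the removal of 1 library.

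Each number was set against the mean of the other 3 in the same fit. The 4 comparisons share all 12 libraries and are not independent, so they are given side by side. In 456wt, 11 Hox genes were higher and 1 was lower, beside 22.9% and 13.6% of all genes. In 343wt, 1 was higher and 11 were lower, beside 14.5% and 25.6%. In 186wt, 1 was higher and 6 were lower, beside 14.8% and 21.9%, and in 444wt 5 were higher and 1 was lower, beside 26.5% and 17.8%. The single gene against the trend in each of these was Hoxb9. The median log2 difference of the 30 Hox genes in 456wt was 0.53, against 0.05 for all genes. With a pseudocount of 1 these were 0.21 and 0.03, and with 0.01 they were 0.64 and 0.06.

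**Figure D3:**
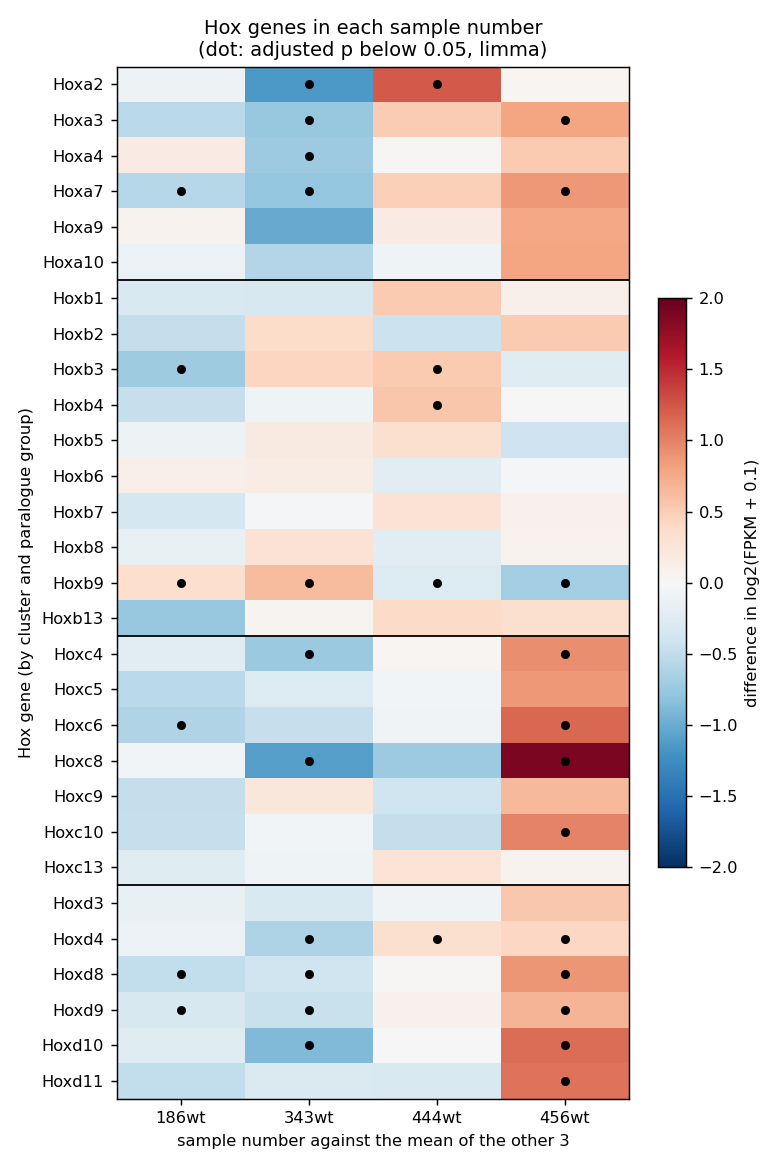
Difference in log2(FPKM + 0.1) of 29 tested Hox genes between a sample number and the mean of the other 3. Red is higher, blue is lower, a dot marks an adjusted p below 0.05 and lines separate the clusters. The 456wt column is red through HoxA, HoxC and HoxD, with 11 dots on higher genes, and Hoxb9 is blue with a dot.

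The difference of 456wt ran through HoxA, HoxC and HoxD. In HoxD all 6 tested genes had a positive difference (median 0.77) and 5 were called, in HoxC all 7 were positive (median 0.93) and 4 were called, and in HoxA all 7 were positive (median 0.78) and Hoxa3 and Hoxa7 were called. The 3 libraries of 456wt gave 8.46, 9.90 and 8.68 FPKM for Hoxd8, and the other 9 gave 4.09 to 6.01 FPKM. The log2 difference was 0.88 with an SE of 0.096 (limma, adjusted p = 2.23e-05). For Hoxd9 the 456wt libraries gave 8.44, 8.12 and 7.87 FPKM and the others 4.07 to 6.12 FPKM, a difference of 0.67 (SE 0.058, limma adjusted p = 3.07e-06). Neither gene overlapped between 456wt and the others.

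Hoxd10 gave 3.29, 3.28 and 3.66 FPKM in the 456wt libraries and 0.97 to 2.15 FPKM in the others, a log2 difference of 1.12 (SE 0.137, limma adjusted p = 5.83e-05). The largest difference of any Hox gene was that of Hoxc8, a gene of thoracic identity and motor neuron pools. Its 456wt libraries had 1.37, 1.28 and 1.19 FPKM and the others 0.09 to 0.55 FPKM, a log2 difference of 1.89 (SE 0.301, limma adjusted p = 0.00043). Hoxc6 had 2.86, 3.39 and 3.36 FPKM against 0.92 to 2.20 FPKM elsewhere, a difference of 1.14 (limma adjusted p = 0.000357). Hoxc4 had 2.22, 2.56 and 2.54 FPKM against 0.81 to 1.61 FPKM, a difference of 0.93 (limma adjusted p = 0.000114). In these 4 genes, too, each 456wt library lay above the other 9.

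Such a separation, with all 3 libraries of 456wt above the 9 others, was seen in 9 of the 30 Hox genes, beside 9.18% of all genes. They were Hoxa7, Hoxc4, Hoxc6, Hoxc8, Hoxc10, Hoxd8, Hoxd9, Hoxd10 and Hoxd11. The converse, with all 3 below, was seen for Hoxb9 alone, beside 3.63% of all genes. In 343wt, 1 gene (Hoxb9) lay above and 3 (Hoxc4, Hoxd4 and Hoxd10) lay below all other libraries, beside 5.81% and 8.28% of all genes. In 444wt, 3 (Hoxa2 and Hoxb4 among them) lay above and 0 below, beside 11.5% and 7.48%, and in 186wt 0 lay above and 0 below, beside 4.06% and 6.76%. Hoxa2 had passed the filter only through 444wt, where it was high. The calls of Hoxa7, Hoxc4, Hoxc6, Hoxc8, Hoxd8, Hoxd9 and Hoxd10 in 456wt were past the threshold in each alternative that tested them, although Hoxa7 and Hoxc8 did not enter the test with a filter of 1 FPKM. Hoxc10 lost its call without 456wt library 2. Hoxd4 lost it without 456wt library 3, with quantile normalization and without 343wt. Hoxd11 lost it without any 1 of the 456wt libraries and with a pseudocount of 0.01, and Hoxa3 in 16 of 23 alternatives, 8 of them the removal of 1 library.

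Markers of several somatic cell types were higher with this difference, and Sertoli markers were lower. All 6 fibroblast markers were higher in 456wt (median log2 difference 1.65), with summed levels of 281 FPKM in 186wt, 402.5 in 343wt, 335 in 444wt and 995 in 456wt. All 6 peritubular myoid markers were higher (median 1.43), with sums of 553, 261, 695 and 1161 FPKM, and all 6 endothelial markers were higher (median 1.17), with sums of 19.9, 25.1, 16.3 and 42.6 FPKM. Markers of the epididymis and rete testis were at or near 0 for Lcn8, Lcn9, Rnase9 and Adam7, and 2 of the 3 that could be tested were higher in 456wt. Among these 2, Crisp1 had 0.0167, 0, 0.05 and 0.66 FPKM in 186wt, 343wt, 444wt and 456wt. It passed the filter only through 456wt, so its call is not independent of the filter. The summed level of the epididymis and rete list was 1.13 FPKM in 186wt and 3.09 FPKM in 456wt, with the others between. The sums of red blood cell markers were 21.5, 58.5, 66.7 and 124 FPKM. Macrophage markers were higher in 4 of 5 cases, and of the 6 Leydig markers 3 were higher and 1 was lower. All 10 Sertoli markers were lower (median -0.47). Of the germ line lists, 7 of 8 spermatogonial and 3 of 4 germ cell markers were higher in 456wt, and 2 of 10 meiotic markers were higher and 6 lower. The part of these cells in the Hox difference was not tested.

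Hoxb9 ran the other way. Its libraries gave 4.83, 4.65 and 4.91 FPKM in 186wt and 5.23, 5.95 and 5.58 in 343wt, against 3.37, 3.55 and 3.47 in 444wt and 3.29, 2.38 and 2.69 in 456wt. Every library of the first pair of numbers lay above every library of the second pair. This pairing was made after the values were seen, and the share of all genes that separate in this way was not counted. The log2 difference was 0.34 (limma adjusted p = 0.0081) in 186wt, 0.63 (0.000112) in 343wt, -0.27 (0.0216) in 444wt and -0.69 (5.57e-05) in 456wt, where each adjusted p is from limma. The call in 444wt was lost without 444wt library 1 or library 3 and without 186wt or 343wt, that in 186wt was lost without 444wt or without 456wt, and those in 343wt and 456wt were lost in no alternative. The 10 Sertoli markers showed the same split between these pairs of numbers, all 10 higher in 186wt and in 343wt and all 10 lower in 444wt and in 456wt. Their sums were 4461, 4636, 2595 and 2759.5 FPKM. Spermatogonial and germ cell lists split the other way. Of 8 spermatogonial markers, 8 were lower in 186wt, 7 lower in 343wt and 7 higher in both 444wt and 456wt. Of 4 germ cell markers, 4 were lower in both 186wt and 343wt, 4 higher in 444wt and 3 higher in 456wt. Meiotic markers followed neither split, with 6 of 10 higher in 186wt and 10 lower in 343wt. The part of these cells in the level of Hoxb9 was not tested. The nearby Gm53 was lower in 456wt by a log2 difference of -0.86 (limma adjusted p = 1.38e-07) and, unlike Hoxb9, higher in 444wt by 0.35.

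**Figure D4:**
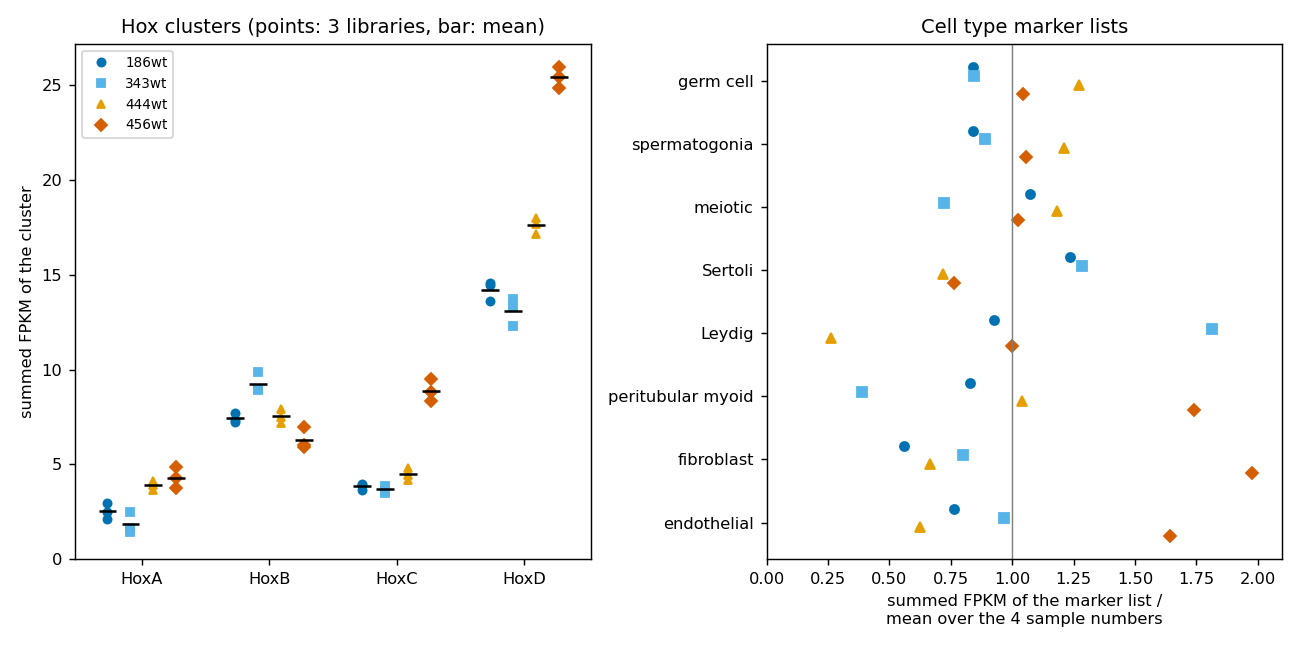
Left, summed FPKM of each cluster in each library (points) and the mean of the 3 libraries of a sample number (bar), on an axis from 0. Right, the summed FPKM of 8 cell type marker lists in each sample number, divided by the mean over the 4 numbers. HoxD and HoxC are highest in 456wt, where the fibroblast, myoid and endothelial lists are also highest, and HoxB is highest in 343wt.

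In HoxA, Hoxa2, which specifies the second pharyngeal arch, had 0.130 FPKM in 186wt, 0.0267 in 343wt, 0.337 in 444wt and 0.133 in 456wt. Its difference in 444wt was 1.23 (SE 0.314, limma adjusted p = 0.00773). It passed the filter of 0.1 FPKM only through 444wt and was not tested without that number. This call is therefore not independent of the filter. In 343wt its level was near the lowest that the depth allows, with a library at 0. In the same cluster, Hoxa7 had 0.263, 0.220, 0.513 and 0.653 FPKM and Hoxa3, a gene of thymus and parathyroid formation, 0.450, 0.390, 0.817 and 1.01 FPKM, so the means of both were higher in 444wt and 456wt than in 186wt and 343wt. Neither was called in 444wt. The 456wt libraries of Hoxa3 gave 0.73, 0.76 and 1.55 FPKM and those of 444wt 0.86, 0.87 and 0.72 FPKM, so its higher mean in 456wt rests on 1 library.

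In HoxB the other calls went to Hoxb3, with 0.393, 0.783, 0.837 and 0.537 FPKM, and Hoxb4, with 0.347, 0.447, 0.657 and 0.467 FPKM. Both were called higher in 444wt, Hoxb3 by 0.52 (limma adjusted p = 0.0459, lost in 16 of 23 alternatives, 8 of them the removal of 1 library) and Hoxb4 by 0.55 (0.0218 by limma, lost without 444wt library 2 or 3, with quantile normalization and without 186wt). Hoxb3 was also called lower in 186wt, by a log2 difference of -0.71 (limma adjusted p = 0.013), a call lost in 3 of 23 alternatives (without 186wt library 2, 343wt or 444wt). In 444wt all 4 germ cell markers were higher and all 6 Leydig cell markers lower. The summed Leydig levels were 56.5, 110, 16.1 and 60.9 FPKM. In 444wt 5 of 6 fibroblast markers (median log2 difference -0.59), all 6 endothelial (-0.75), 4 of 5 macrophage and all 10 Sertoli markers were also lower. By contrast, 4 of 6 peritubular myoid markers (median 0.36) and 7 of 8 spermatogonial markers were higher there. Of 10 meiotic markers, 9 were higher and 1 was lower. The part of these cells in the Hox differences was not tested.

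In 343wt the 11 lower genes included Hoxa2, Hoxa3, Hoxa4 and Hoxa7, Hoxc4 and Hoxc8, and Hoxd4, Hoxd8, Hoxd9 and Hoxd10. Several of these calls rested on few libraries. Hoxa4 lost its call in 18 of 23 alternatives, 10 of them the removal of 1 library, and Hoxa3 in 16 of 23, 8 of them the removal of 1 library. Hoxa2 lost its call without 343wt library 2, and Hoxc8 without 343wt library 3 or without 456wt. The log2 difference was -1.16 for Hoxa2 and -1.10 for Hoxc8, and with a pseudocount of 1 it was -0.22 and -0.43, so the order of the genes by size depends on the pseudocount. All 7 tested HoxA genes and all 6 tested HoxD genes had a negative difference there. In 343wt all 6 peritubular myoid markers were lower (median -1.53) and all 6 Leydig markers higher (median 1.49). All 10 meiotic markers (median -0.51), all 4 germ cell and 7 of 8 spermatogonial markers were lower there too, while all 10 Sertoli and 4 of 5 macrophage markers were higher, and the part of these cells was not tested. In 186wt, where 6 Hox genes were lower, all 6 fibroblast (median -0.85), all 8 spermatogonial and all 4 germ cell markers were lower. All 10 Sertoli and 5 of 6 Leydig markers were higher there, and of 10 meiotic markers 6 were higher and 2 lower. The part of these cells in 186wt was likewise not tested. Of the 30 tested Hox genes, 19 had their highest level in 456wt, 8 in 444wt, 3 in 343wt and 0 in 186wt. The 3 in 343wt were all HoxB genes. How all genes divide by highest number was not counted, so this split has no background. All genes, too, were called higher more often in 444wt (26.5%) and 456wt (22.9%) than in 186wt (14.8%) and 343wt (14.5%).

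Of the genes flanking the clusters, 37 entered the test, of which 7 were higher and 7 lower in 456wt and 27 (73.0%) were called by the F-test, beside 22.9%, 13.6% and 58.2% of all genes. The TALE cofactors had 6 of 9 higher and 2 lower in 456wt, and the Polycomb genes 3 of 14 higher and 1 lower, with median log2 differences of 0.22 and 0.04, beside the same shares of all genes.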

How the data were processed

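The authors sequenced RNA of the 12 libraries and deposited 1 table of FPKM values with 2 decimals, made with Bowtie 0.12.9 and RSEM 1.2.8 on NCBI build 37 (mm9), per the study's methods and the submitters' processing notes. RSEM divides reads shared by overlapping or similar genes. Counts are not used here, and depth was estimated from the steps of low values in genes with 1 transcript, a method with a largest error of 3.08% on simulated data over 22274 genes.

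Positions came from GENCODE M1 on the same build, which placed 37205 of 37620 gene identifiers. Libraries were averaged within a sample number and numbers were weighted equally. limma 3.58.1 (R 4.3.3, trended eBayes) was applied to log2(FPKM + 0.1), a scale that understates the change of low genes, for genes averaging 0.1 FPKM or more, with a two-sided Benjamini-Hochberg threshold of 0.05. On simulated data over 20795 genes, a small share of genes was shifted by a fixed amount in a single sample number. A contrast recovered 67.5% of them with 5.59% of calls false. In the data 58.2% of genes were called by the F-test, with differences of many sizes, so these rates may not carry over to the calls above. Cluster sums were compared by an exact sign-flip permutation test. Python 3.11.15, pandas 2.3.3, numpy 2.4.6 and matplotlib 3.10.9 were used.

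The text names Hox genes averaging 1 FPKM or more, the highest gene of each cluster, genes called by the F-test with a log2 range over 1, the 5 nearest protein-coding genes on each side, and fixed lists. Genes named for a level near 0, for overlapping exons, for a gap between sample numbers or for another call were added after their values were seen. The Hox members and the gene lists were chosen with earlier results of these data known. Adgre1, Kmt2a and Mll were not found under those symbols, while Emr1 and Mll1 were. Alternatives changed the pseudocount, filter, scaling, variance model, replicate block and the libraries or numbers used. The values of 1 Hox gene are not reported here, though it is kept in counts, medians and sums.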

Additional observations from a re-analysis of the deposited data

Results flagged for a closer look

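Over the 4 sample numbers, 48 values (the level of each Hox row that varied, the sums of clusters and position classes, and the numbers of genes past 0.1 and 1 FPKM) were examined for 1 number far from the rest, by Dixon's ratio at the 95% level. By chance about 1 in 20 such groups, or 2.4 of 48, would stand apart, and 4 did. All 4 were in 456wt. Hoxd11 had 0.353 FPKM there and 0.113 to 0.130 FPKM in the others. The summed HoxC level was 8.89 FPKM there and 3.69 to 4.48 FPKM in the others. The summed posterior level was 17.6 FPKM there and 12.9 to 13.3 FPKM in the others. The second Hoxa3 row had 0.00667 FPKM there, the mean of 1 library at 0.02 FPKM and 2 at 0, and was listed at 0 in the others. A row above 0 in only 1 number always stands apart by this ratio, so its outcome was fixed. It cannot be counted against the 2.4 set by chance. The 4 values share genes and the same 3 libraries, so they are not independent of each other.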

How the results depend on the processing

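No alternative turned the direction of a called Hox difference. Of 52 calls, 33 were past the threshold without each library in turn and 19 in every alternative. The count at 0.1 FPKM was 30 to 31 without a library and 29 to 32 without a sample number, and 8 with a minimum of 1 FPKM. That at 1 FPKM was 8 in all of these, and 15 after rescaling to TPM, which raised the sums to 6.55 (HoxA), 15.9 (HoxB), 10.9 (HoxC) and 36.5 (HoxD). Without 1 sample number the sums were 2.77 to 3.59, 7.10 to 8.08, 4.01 to 5.74 and 15.0 to 19.1 FPKM in that order, the lowest of HoxA, HoxC and HoxD without 456wt. The cause of other changes was not tested.

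The F-test called 13 to 17 Hox genes without 1 library, 10 to 15 without 1 sample number (10 without 456wt, all among the 15) and 7 of 8 tested with a filter of 1 FPKM, where fewer genes enter. With that filter the F-test called 11136 of all 14348 genes tested. Of the 8 Hox genes, 3 were lower in 186wt, 6 lower in 343wt, 1 higher in 444wt and 7 higher in 456wt. Of all 14348 genes, 4466, 5111, 5262 and 4404 were called in the same order. Higher genes in 444wt numbered 3 with no filter or upper-quartile scaling and 2 with quantile normalization, which also gave 2 higher in 343wt and 2 lower in 444wt, as did a pseudocount of 1 for the last. Leaving out a library or a number gave 8 to 13 higher in 456wt, 5 to 12 lower and 1 to 2 higher in 343wt, 1 to 10 lower and 0 to 1 higher in 186wt, and 2 to 8 higher and 0 to 2 lower in 444wt. Of these, 10 lower in 186wt came without 343wt, 1 lower in 186wt, 5 lower in 343wt and 8 higher in 444wt without 456wt, 3 lower in 186wt without 186wt library 2 or without 444wt, 7 lower in 343wt without its library 2 or 3, and 2 higher in 444wt without its library 2 or 3.

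Library numbers do not pair the samples, as deviations of same-numbered libraries correlated at -0.0407 to 0.0299 over 18 pairs. With the library number as a block the F-test called 15, 14 of them the same genes, and 456wt had 11 higher, with Hoxa3 lost and Hoxc9 added. It called 9 lower in 343wt, 5 lower in 186wt and 4 higher in 444wt. No scaling moved the median of all genes by more than 0.08 on the log2 scale.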
